A study of Mus musculus with 9 samples.

Results

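Molecular chaperones and protein folding enzymes were examined in cultured mouse hepatic stellate cells with and without p62. A gene was taken as a member when its symbol belongs to the J-domain (Dnaj), heat shock protein (Hspa to Hsph, Hsp90), BAG, FKBP, protein disulfide isomerase (Pdia, P4hb) or chaperonin (Cct) families, or is Calr, Canx or Hyou1. The deposited table held 99 such genes among 14020, and 0 further symbols were left out as pseudogenes. The 9 libraries fell into 3 groups of 3. The first was labelled Nbr1 Sqstm1 double knock-out (labelled double KO below), the second was Sqstm1 knock-out (Sqstm1 KO), and the third was wild type (WT). Sqstm1 encodes p62 and Nbr1 a related receptor of selective autophagy. All cells came from liver and were kept for 4 days in culture with 10% serum and no further treatment. The labels name no strain, age, driver of the deletions or source animals. The series text speaks of biological replicates, while the labels do not say whether they were separate animals or cultures, so p-values measure the spread between these samples.

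Chaperones bind unfolded or newly made proteins and either hold them soluble or fold them in cycles driven by ATP. In the cytosol, HSP70 works with J-domain proteins, which deliver clients, and with nucleotide exchange factors of the HSP110 and BAG families, which release them. HSP90, its FKBP partners and the CCT chaperonin act on selected clients such as steroid receptors, kinases, actin and tubulin. In the endoplasmic reticulum (ER), BiP, GRP94, the lectin chaperones and the disulfide isomerases fold secreted proteins, which in an activated stellate cell are largely collagens. Proteins that cannot be folded are passed to the proteasome or to autophagy, where p62 serves as a receptor for aggregates.

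The libraries held 873156 to 1142862 counted reads in the labelled double KO group, 1060809 to 1333537 in Sqstm1 KO and 819677 to 1467793 in WT. Values are the deposited normalized counts, each of which is a whole read count divided by 1 factor per library. Sqstm1 had 25.8, 51.4 and 59.9 in labelled double KO, 40.8, 30.8 and 86.8 in Sqstm1 KO, and 223, 255 and 243 in WT. Nbr1 had 81.3, 79.9 and 111 in labelled double KO, 75.5, 72.2 and 88.9 in Sqstm1 KO, and 106, 92.7 and 106 in WT, so a count over the whole gene did not check the Nbr1 label. Directions drawn from that group rest on its label. Sqstm1 KO replicate 3 stood apart: its 10 highest genes took 18.5% of its reads, and it correlated with the other libraries of its group at 0.853 and 0.847 across genes, against at least 0.878 in the other pairs within a group. The 4 Y-linked genes measured summed to 76.5 to 112 in labelled double KO, 0 in all 3 Sqstm1 KO libraries and 176 to 177 in WT. Loss of p62 and of Y-linked reads therefore cannot be told apart in a comparison with Sqstm1 KO. The labelled double KO sums also lay wholly below WT, with a negative log2 fold change in all 4 genes. Genotype and Y-linked reads cannot be told apart in that comparison either. Stellate cell and myofibroblast markers (8 of 12 with values, Lrat, Reln, Des and Lum having none) summed to 4370 to 6444 in labelled double KO, 4892 to 5867 in Sqstm1 KO and 1422 to 1599 in WT. Macrophage markers (4 of 7 with values) summed to 14.3 to 29.3 in labelled double KO, 8.68 to 12.3 in Sqstm1 KO and 20.3 to 35.4 in WT, and hepatocyte and lymphocyte markers had no values. Portal fibroblast and mesothelial markers (3 of 6 with values) summed to 311 to 316 in labelled double KO, 231 to 432 in Sqstm1 KO and 202 to 244 in WT. Endothelial (1 of 5) and cholangiocyte (1 of 4) markers reached at most 16.3 and 6.78.

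Neither the library kit nor the strand setting of the read counter is stated in the labels. Among the 100 matched genes with the highest means, 71 had an exon that overlaps an exon of another gene on the opposite strand, against 36.2% of the other matched genes. Pcsk7, which lies opposite the contractile gene Tagln, averaged 10632 over the libraries and Tagln 271. Whether reads were counted on the strand of the gene or on the other strand was not tested, and where 2 genes overlap their reads cannot be told apart. Among the 99 members 34 had such an overlap, and among the 83 tested 28 had one (33.7%, against 39.7% of all tested genes that matched the annotation). The partner is named wherever it touches a called gene. Because the samples are bulk RNA, fewer cells of a type and less RNA per cell also cannot be told apart.

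Of the 99 members, 83 had a normalized count of at least 10 in at least 3 libraries and were tested, and 16 were not. Among those tested, Hspb2 alone passed through 1 group only. Per kilobase of exon, the mean level over the 9 libraries ran from 0.417 for Dnajc15 to 638 for Hsp90ab1, with Hsp90b1 at 568, Pdia3 at 225 and Calr at 221 next. The members together took 1.25% to 1.47% of the reads in labelled double KO, 1.39% to 1.68% in Sqstm1 KO and 1.31% to 1.82% in WT. These ranges overlapped.

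Most chaperone genes were not called different in any comparison. A gene is called when its adjusted p is under 0.05 in limma's linear model of log2(normalized count + 1), with Benjamini-Hochberg adjustment over all 10118 genes tested. In Sqstm1 KO against WT, 5 of 83 members were called (6.02%), while 5.61% of all genes tested were called. The 3 higher were Fkbp4, Fkbp9 and Cct7, beside 2.43% of all genes, and the 2 lower were Hspb8 and Hspa12a, beside 3.18%. In labelled double KO against Sqstm1 KO, 3 of 83 were called (3.61%), beside 5.93% of all genes. The 2 higher were Hspb2 and Hspa12a (4.42% of all genes) and the 1 lower was Hspb1 (1.51%). Hspb2 had passed the filter only through the labelled double KO libraries, so its calls as higher there are a description, and 2 calls remain without it. In labelled double KO against WT, 4 of 83 were called (4.82%), beside 6.42% of all genes. The 2 higher were Pdia4 and Hspb2 (4.11% of all genes) and the 2 lower were Hspa4l and Hspb8 (2.31%), which leaves 3 calls without Hspb2. The share of members called was therefore near or below that of all genes in each comparison. The counts rested on single libraries. In Sqstm1 KO against WT the 5 became 1 without Sqstm1 KO replicate 1, 3 without double KO replicate 3, and 2, 0 and 1 when WT replicate 1, 2 and 3 were left out in turn (8 members at an unadjusted p under 0.05 beside the limma count of 0). In labelled double KO against Sqstm1 KO the 3 became 1 without double KO replicate 1 or Sqstm1 KO replicate 1 or 2, and 0 without double KO replicate 3 (8 at an unadjusted p under 0.05, limma). In labelled double KO against WT the 4 became 1 without double KO replicate 1, 2 and 1 without WT replicate 2 and 3, and 13 without Sqstm1 KO replicate 3. Calls over all 10118 genes moved too. In Sqstm1 KO against WT, 568 became 264 without WT replicate 2. In labelled double KO against Sqstm1 KO, 600 became 333 without double KO replicate 3. In labelled double KO against WT, 650 became 391 without double KO replicate 1 and 1409 without Sqstm1 KO replicate 3. The comparisons share libraries, so their results are not independent of each other.

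**Figure D1:**
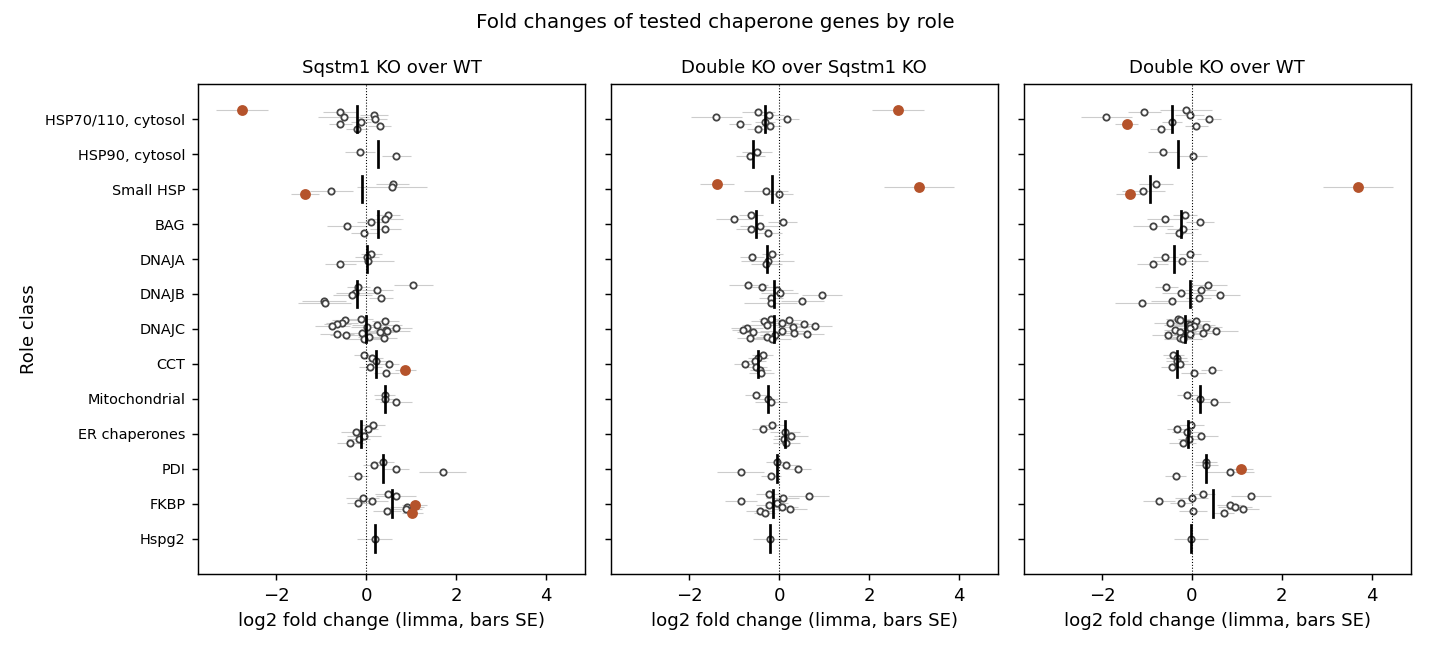
Log2 fold changes (x axis, limma, grey bars SE) of the 83 tested chaperone genes in rows by role (y axis), for Sqstm1 KO over WT, labelled double KO over Sqstm1 KO and labelled double KO over WT. Filled points are the 5, 3 and 4 called genes and vertical bars are class medians. The filled points of Hspb2 are a description, since it passed the filter only through the labelled double KO libraries. Hspb2 at 3.69 and Hspa12a at -2.77 lie farthest from 0 among the filled points.

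The 3 values of Sqstm1 KO lay wholly above those of WT for 15 members and wholly below for 8 (27.7% of members), against 26.0% of all genes tested, 12.4% above and 13.6% below. All labelled double KO values lay above Sqstm1 KO for 3 and below for 18 (25.3%, against 21.0% of all genes, 11.5% above and 9.47% below). Against WT they lay above for 11 and below for 20 (37.3%, against 31.2% of all genes, 15.7% above and 15.5% below). The median log2 fold change of the members was 0.11 in Sqstm1 KO against WT, -0.23 in labelled double KO against Sqstm1 KO and -0.10 in labelled double KO against WT, and over all genes tested it was -0.01, -0.01 and -0.02. The first of these medians was -0.01 with quantile normalization, -0.09 with scaling by total reads and 0.01 without Sqstm1 KO replicate 3. The other medians stayed below 0 under every scaling tried, and without that replicate they were -0.17 and -0.10. In the map of all tested members the column of Sqstm1 KO replicate 3 was the highest on balance, with a median of 0.28 above the gene means, where the other 8 libraries lay between -0.12 and 0.12.

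**Figure D2:**
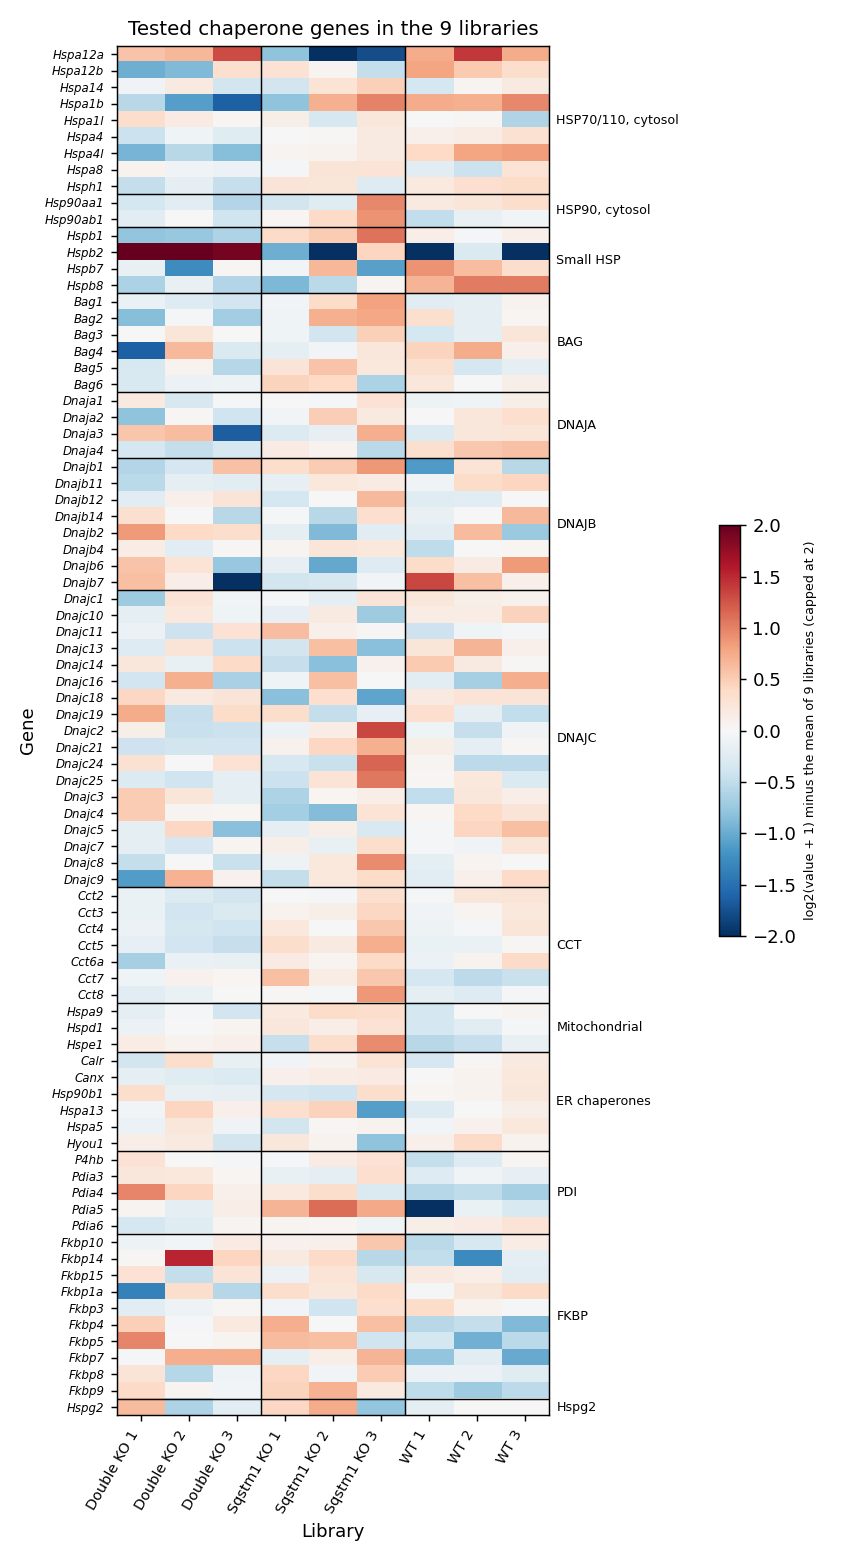
Colour shows log2(normalized count + 1) of each tested chaperone gene (rows, grouped by role) minus its mean over the 9 libraries (columns: labelled double KO, Sqstm1 KO, WT), capped at 2 in either direction. Hspb2 stands out as high in the 3 labelled double KO libraries, Hspa12a as low in Sqstm1 KO, and Sqstm1 KO replicate 3 has the highest median column at 0.28.

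Small heat shock proteins are ATP-independent holdases that form oligomers and keep unfolding proteins soluble, and 4 of the 6 measured were tested. Hspb8, whose protein joins BAG3 and HSC70 to send misfolded clients to autophagy, was lower in both mutant groups than in WT. It had normalized counts of 25.8, 36.5 and 26.7 in labelled double KO, 21.4, 27.6 and 42.3 in Sqstm1 KO, and 65.4, 84.4 and 84.3 in WT. The 2 mutant groups overlapped each other, and both lay wholly below WT. It fell in Sqstm1 KO to 30.4 ± 10.7, against 78.0 ± 10.9 in WT (SD, n = 3 each), a log2 fold change of -1.37 (SE 0.31; limma adjusted p = 0.0180). It stood at 29.7 ± 5.94 in labelled double KO, with a log2 fold change against WT of -1.37 (SE 0.31; limma adjusted p = 0.0162). No exon of another gene lies opposite Hspb8. Bag3, its partner, had 31.6, 37.7 and 31.8 in labelled double KO, 29.6, 24.3 and 44.5 in Sqstm1 KO, and 24.5, 27.9 and 37.6 in WT, and the 3 groups overlapped. The fall in Sqstm1 KO was not called without WT replicate 2, WT replicate 3 or Sqstm1 KO replicate 1 (limma adjusted p = 0.104, 0.0871 and 0.0695), and the fall in labelled double KO was not called without WT replicate 2 or 3 or without double KO replicate 1 or 3 (0.0932, 0.0876, 0.0622 and 0.0743).

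Hspb1, the mouse HSP25 that binds actin filaments, was lowest in the labelled double KO libraries. It had 6.69, 6.85 and 7.64 there, 16.3, 17.9 and 27.1 in Sqstm1 KO, and 13.6, 12.1 and 13.3 in WT. Hspb1 passed the filter with 6 libraries, all of them Sqstm1 KO or WT, where it is higher, so its test values depend on that choice. The 3 groups did not overlap. It fell to 7.06 ± 0.508 in labelled double KO, against 20.4 ± 5.84 in Sqstm1 KO (SD, n = 3 each), with a log2 fold change of -1.38 (SE 0.37; limma adjusted p = 0.0442). Against WT its log2 fold change was -0.80 (SE 0.37; limma adjusted p = 0.237). The call was lost under DESeq2 (adjusted p = 0.0576), with no filter, with scaling by total reads, with only the 2 groups compared, and when any of the 9 libraries was left out (limma adjusted p 0.0646 to 0.108). Of the 50-base stretches in its transcripts, 48.8% also occur in transcripts of another gene, so its count is uncertain.

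Hspb2 had nearly all of its reads in the labelled double KO libraries. This small heat shock protein of muscle sits head to head with Cryab, which encodes αB-crystallin, and the annotated exons of the pair share 252 bases on opposite strands. Hspb2 had 26.8, 16.0 and 14.0 in labelled double KO, 1.02, 0 and 4.34 in Sqstm1 KO, and 0, 2.26 and 0 in WT. The labelled double KO values lay wholly above both other groups. They rested on 53 reads in labelled double KO, 5 in Sqstm1 KO and 3 in WT. This gives ratios of 12.3 against Sqstm1 KO and 24.2 against WT. Its fitted log2 fold change was 3.12 against Sqstm1 KO (SE 0.78) and 3.69 against WT (SE 0.78). Since Hspb2 passed the filter only through the group where it is high, these values are given with no test. Cryab itself had 280.2, 184 and 261 in labelled double KO, 112, 75.5 and 229.9 in Sqstm1 KO, and 73.5, 49.7 and 46.1 in WT. It rose in labelled double KO against WT by 2.09 on the log2 scale (SE 0.36; limma adjusted p = 0.00286), a call kept under all 19 alternatives, while Sqstm1 KO overlapped labelled double KO. Whether the Hspb2 reads belong to Hspb2 or to Cryab transcripts was not tested.

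The remaining small heat shock proteins were low. Hspb7 had 13.4, 5.71 and 15.3 in labelled double KO, 14.3, 24.3 and 6.51 in Sqstm1 KO, and 28.6, 23.4 and 19.4 in WT, and was not called in any comparison. The labelled double KO libraries lay wholly below WT, and Sqstm1 KO overlapped both. Hspb6 and Hspb9 did not pass the filter.

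Cytosolic HSP70 proteins and their HSP110 exchange factors leaned lower in the labelled double KO libraries. Of 12 members, 9 were tested, and 7 of these had a negative log2 fold change against WT, with a median of -0.44 that stayed below 0 under every scaling. Only Hspa4l passed the test there (6.42% of all genes tested did), and 4 had an unadjusted p under 0.05 (21.4% of all genes). Hspa4l, an HSP110-type exchange factor, had 38.2, 50.2 and 40.8 in labelled double KO, 76.6, 77.9 and 83.5 in Sqstm1 KO, and 98.1, 129 and 133 in WT. The 3 groups did not overlap, with labelled double KO lowest and WT highest. Against WT it fell to 43.1 ± 6.32 in labelled double KO, beside 119.9 ± 19.0 in WT (SD, n = 3 each), a log2 fold change of -1.45 (SE 0.25; limma adjusted p = 0.00251). This call held under all 19 alternatives, the highest adjusted p being 0.0248. The log2 fold change was -0.87 for labelled double KO against Sqstm1 KO (SE 0.25; limma adjusted p = 0.0536) and -0.58 for Sqstm1 KO against WT (SE 0.25; limma adjusted p = 0.215), neither of which was called, although the first was called by DESeq2 (adjusted p = 0.0469).

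The relatives of Hspa4l also lay lower in labelled double KO than in WT, without a call. Hsph1, the HSP110 that also holds clients in the cytosol, had 90.8, 111 and 91.7 in labelled double KO, 153, 151 and 106 in Sqstm1 KO, and 146, 161 and 164 in WT. Labelled double KO lay wholly below WT, with a log2 fold change of -0.68 (SE 0.24; limma adjusted p = 0.118), and overlapped Sqstm1 KO. Hspa4 had 193, 244 and 220.3 in labelled double KO, 260.3, 264 and 294 in Sqstm1 KO, and 279, 289 and 322 in WT, and was not called in any comparison. Every labelled double KO value lay wholly below both other groups.

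The stress-inducible HSP70 genes Hspa1a and Hspa1b had few reads. Hspa1b had 3.82, 2.28 and 1.27 in labelled double KO, 3.06, 10.6 and 13.0 in Sqstm1 KO, and 10.9, 10.5 and 12.7 in WT. All labelled double KO values lay wholly below WT, with a log2 fold change of -1.90 (SE 0.57; limma adjusted p = 0.0669), and Sqstm1 KO overlapped both. Hspa1a did not pass the filter, with 1.91, 1.14 and 0 in labelled double KO, 2.04, 1.62 and 2.17 in Sqstm1 KO, and 13.6, 4.52 and 7.88 in WT. The pair share 62.3% of the 50-base stretches of Hspa1b and 60.4% of those of Hspa1a with other transcripts, so the counts of each are uncertain. Hspa8, the constitutive HSC70, had 94.7, 85.6 and 82.8 in labelled double KO, 87.8, 108 and 108 in Sqstm1 KO, and 76.3, 66.3 and 109 in WT. All 3 groups overlapped, and Hspa8 was not called in any comparison. Of its 50-base stretches, 38.6% recur in other transcripts, so its count is uncertain too.

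Hspa12a, a divergent member of the HSP70 family, was lowest in Sqstm1 KO. It had 9.56, 10.3 and 16.6 in labelled double KO, 3.06, 0 and 1.08 in Sqstm1 KO, and 10.9, 18.1 and 10.9 in WT. Labelled double KO and WT overlapped, and both lay wholly above Sqstm1 KO. Hspa12a passed the filter with 5 libraries, all of them WT or labelled double KO, where it is high, so its test values depend on that choice. The Sqstm1 KO values rested on 4 reads, against 50 in WT and 32 in labelled double KO. The ratio was 0.0947 for Sqstm1 KO over WT (95% exact interval 0.0249 to 0.258) and 9.26 for labelled double KO over Sqstm1 KO (3.28 to 36.1), for counting error only. It fell by 2.77 on the log2 scale in Sqstm1 KO against WT (SE 0.58; limma adjusted p = 0.0111) and rose by 2.65 in labelled double KO against Sqstm1 KO (SE 0.58; limma adjusted p = 0.0134). Eno4, with 166 shared exon bases on the opposite strand, had 26.8, 11.4 and 39.5 in labelled double KO, 10.2, 9.74 and 16.3 in Sqstm1 KO, and 35.4, 26.4 and 26.7 in WT. Its Sqstm1 KO values lay wholly below WT and overlapped labelled double KO. The fall was not called without WT replicate 2 (limma adjusted p = 0.0876), and the rise was not called without double KO replicate 3 (0.0806) or with only the 2 groups compared (0.0681). Hspa12b, its paralogue, had 18.2, 19.4 and 45.8 in labelled double KO, 44.9, 38.1 and 26.0 in Sqstm1 KO, and 64.0, 52.7 and 46.7 in WT, with a log2 fold change of -1.06 in labelled double KO against WT (SE 0.37; limma adjusted p = 0.108).

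**Figure D3:**
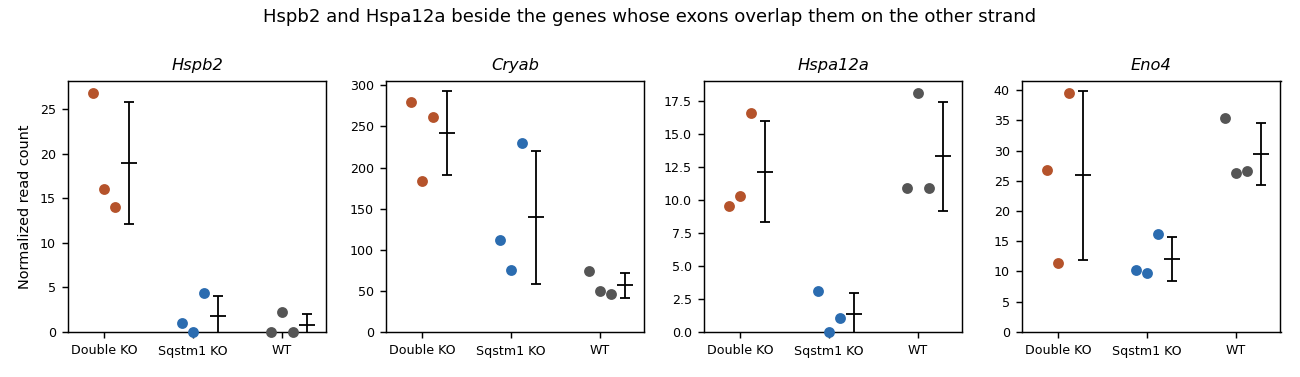
Normalized counts (y axis) of Hspb2 and Hspa12a beside Cryab and Eno4, whose exons overlap theirs on the opposite strand, in labelled double KO, Sqstm1 KO and WT libraries (points; bars are mean ± SD, n = 3, cut at 0). Hspb2 is highest in labelled double KO, where Cryab lies wholly above WT and overlaps Sqstm1 KO. Hspa12a is lowest in Sqstm1 KO, where Eno4 lies wholly below WT and overlaps labelled double KO.

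The 2 cytosolic HSP90 genes were called by none of limma, edgeR and DESeq2 in any comparison, with 0 at an unadjusted p under 0.05. Of all genes tested, limma called 5.61% to 6.42%, and 18.8% to 21.4% had an unadjusted p under 0.05. Hsp90ab1, the constitutive form, had 1561, 1852 and 1389.5 in labelled double KO, 1885, 2379 and 3419 in Sqstm1 KO, and 1302, 1661 and 1762 in WT. Sqstm1 KO lay wholly above both other groups, with replicate 3 highest, and its log2 fold change against WT was 0.67 (SE 0.32; limma adjusted p = 0.279). Hsp90aa1, the inducible form, had 505, 557 and 429 in labelled double KO, 500.2, 543 and 1256 in Sqstm1 KO, and 729, 759 and 817 in WT. Labelled double KO lay wholly below WT, and Sqstm1 KO replicate 3 was far above the other 2 of its group. Of its 50-base stretches, 47.5% recur in other transcripts.

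J-domain and BAG proteins, which steer the HSP70 cycle, gave no call. Together 36 of these 44 genes were tested (4 of 4 Dnaja, 8 of 10 Dnajb, 18 of 24 Dnajc and 6 of 6 Bag), and limma, edgeR and DESeq2 called 0 of them in all 3 comparisons. An unadjusted p under 0.05 was reached by 2 in Sqstm1 KO against WT, 6 in labelled double KO against Sqstm1 KO and 3 in labelled double KO against WT. Over all genes tested the shares were 19.4%, 18.8% and 21.4% in that order. Limma called 5.61%, 5.93% and 6.42% of all genes. Bag1, a nucleotide exchange factor, had 83.2, 76.5 and 70.0 in labelled double KO, 87.8, 118 and 161 in Sqstm1 KO, and 79.0, 80.6 and 96.4 in WT. The labelled double KO libraries lay wholly below Sqstm1 KO and overlapped WT. Dnajb1, the HSP40 of the heat shock response, had 12.4, 14.8 and 29.3 in labelled double KO, 24.5, 27.6 and 35.8 in Sqstm1 KO, and 8.17, 23.4 and 12.7 in WT. Sqstm1 KO lay wholly above WT, with a log2 fold change of 1.04 (SE 0.43; limma adjusted p = 0.196). Dnajc21, a J protein of ribosome assembly, had 44.9, 46.8 and 45.8 in labelled double KO, 64.3, 81.2 and 99.8 in Sqstm1 KO, and 65.4, 52.7 and 61.2 in WT. Labelled double KO was wholly below both other groups, with a log2 fold change of -0.80 against Sqstm1 KO (SE 0.26; limma adjusted p = 0.0956).

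The highest J-domain counts belonged to genes with a partner on the other strand. Dnajc19, a subunit of the mitochondrial import motor, had 991, 430.4 and 764 in labelled double KO, 759, 425 and 530.4 in Sqstm1 KO, and 754, 521 and 423 in WT, and shares exon bases with Fxr1. Dnajc14 had 619.6, 479 and 692 in labelled double KO, 386, 298 and 565 in Sqstm1 KO, and 765, 602 and 537 in WT, and shares 1114 exon bases with Ormdl2. In both genes all 3 groups overlapped. Dnaja1, the highest of its class, ran from 156 to 222 in labelled double KO, 192 to 239 in Sqstm1 KO and 182 to 213 in WT.

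The cytosolic chaperonin CCT, a ring of related subunits that folds actin and tubulin, lay lower in labelled double KO than in Sqstm1 KO on balance, without a call. All 7 subunits tested had a negative log2 fold change in that comparison, with a median of -0.47, and the sign of the median and of all 7 held under every scaling and without Sqstm1 KO replicate 3 (median -0.36). For 6 of 7 the values lay wholly below those of Sqstm1 KO, against 9.47% of all genes tested. None was called by limma or edgeR, 2 had an unadjusted p under 0.05 (18.8% of all genes), and DESeq2 called Cct5 alone. Cct5 had 249.6, 213 and 203 in labelled double KO, 356, 318 and 463 in Sqstm1 KO, and 256, 256 and 285 in WT. Its log2 fold change in labelled double KO against Sqstm1 KO was -0.76 (SE 0.24; limma adjusted p = 0.0861; DESeq2 adjusted p = 0.0296). Cct2 had 259, 234 and 220.3 in labelled double KO, 287, 281 and 354 in Sqstm1 KO, and 279, 336 and 339.6 in WT, and labelled double KO was wholly below both other groups. Cct8 had 425, 444 and 485 in labelled double KO, 498, 474 and 894 in Sqstm1 KO, and 429, 409 and 475 in WT, with all 3 groups overlapping and Sqstm1 KO replicate 3 far above the rest. Tcp1, the subunit that the naming rule leaves out, had 221, 239 and 237 in labelled double KO, 248, 291 and 360.1 in Sqstm1 KO, and 206, 227 and 210.4 in WT, again wholly below Sqstm1 KO.

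Cct7 was the one chaperonin subunit called, in Sqstm1 KO against WT. It had 118, 132 and 129 in labelled double KO, 189.9, 139 and 183 in Sqstm1 KO, and 98.1, 86.6 and 92.2 in WT. The 3 groups did not overlap, with Sqstm1 KO highest and WT lowest. It rose to 171 ± 27.8 in Sqstm1 KO, against 92.3 ± 5.71 in WT (SD, n = 3 each), a log2 fold change of 0.87 (SE 0.23; limma adjusted p = 0.0441). Pradc1, which shares 214 exon bases with it on the opposite strand, had 19.1, 27.4 and 52.2 in labelled double KO, 42.9, 16.2 and 46.6 in Sqstm1 KO, and 20.4, 15.8 and 11.5 in WT. The call was lost with no filter (limma adjusted p = 0.0510), with scaling by total reads (0.158), with only the 2 groups compared (0.0763), and without any WT library, Sqstm1 KO replicate 1 or any double KO library (0.0508 to 0.196).

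**Figure D4:**
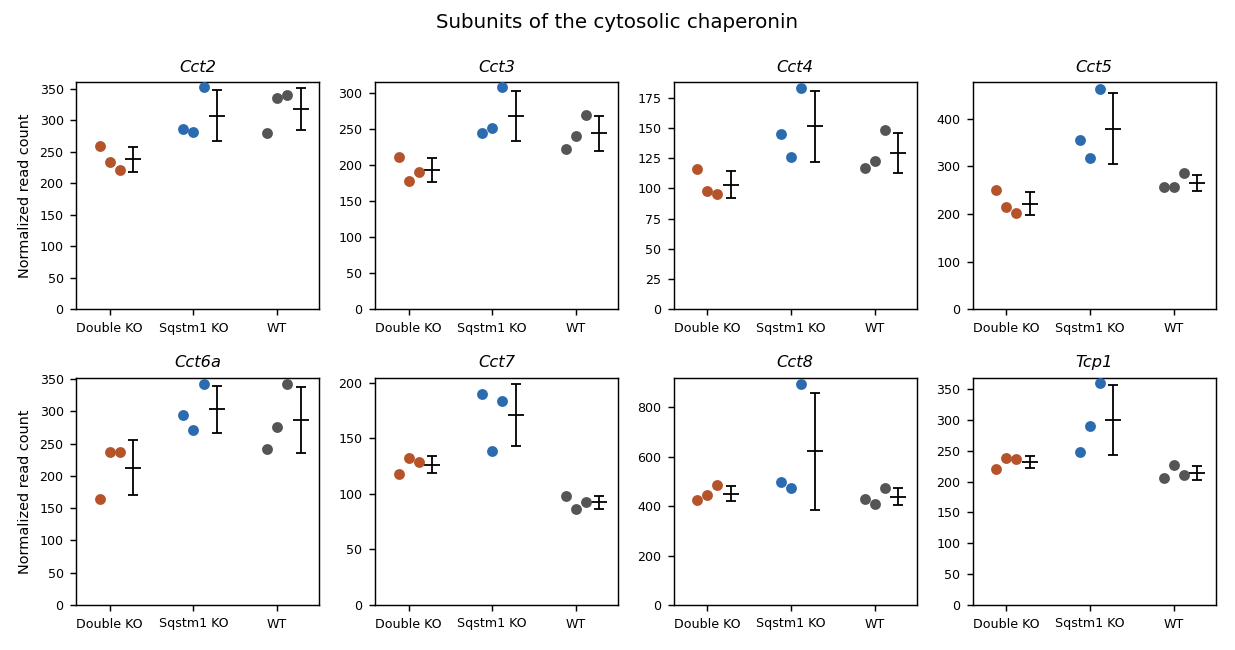
Normalized counts (y axis) of the 7 Cct subunits and Tcp1 in labelled double KO, Sqstm1 KO and WT libraries (points; bars are mean ± SD, n = 3). Labelled double KO lies wholly below Sqstm1 KO in 6 of the 7 Cct genes and in Tcp1, and the highest value of Cct8, 894, is Sqstm1 KO replicate 3.

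Mitochondrial chaperones lay higher in Sqstm1 KO than in WT, without a call. All 3 had a positive log2 fold change against WT, with a median of 0.42 that ranged from 0.21 to 0.42 over the scalings, and 0 of 3 reached an unadjusted p under 0.05 or a call by limma, edgeR or DESeq2. Hspd1, the HSP60 chaperonin of the matrix, had 203, 221 and 229 in labelled double KO, 259, 241 and 271 in Sqstm1 KO, and 173, 191 and 214 in WT. Sqstm1 KO lay wholly above both other groups, and labelled double KO overlapped WT. Hspe1, its HSP10 lid, had 31.6, 29.7 and 30.6 in labelled double KO, 20.4, 36.5 and 55.3 in Sqstm1 KO, and 19.1, 20.3 and 25.5 in WT. Every labelled double KO value lay wholly above WT. Hspa9, the mitochondrial HSP70, had 337, 379 and 297 in labelled double KO, 442, 501 and 496 in Sqstm1 KO, and 304, 384 and 400.2 in WT, with Sqstm1 KO wholly above the others. Hspd1 and Hspe1 are transcribed in opposite directions from a shared promoter and their exons share 112 bases, so their reads cannot be told apart there, and 39.7% and 18.4% of their 50-base stretches recur in other transcripts.

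The shared promoter of Hspd1 and Hspe1 holds a heat shock element, the inverted repeat bound by HSF1. The motif searched was GAA, TTC and GAA with 2 bases of any kind between neighbours, on both strands, in RefSeq windows from 250 bases before to 50 after each start (build GRCm38.p6). It was present in 4 of the 83 members with a window (4.82%), Hspd1, Hspe1, Dnajb6 and Hsph1, and in 0.662% of 27025 genes. The sites are shown because they mark the members with the classical heat shock motif, and capitals mark the match within the flanking bases.
Hspe1 (window chr1:55087898-55088197, + strand): gtccgTTCTAGAACCTTCcggaa
Hspd1 (window chr1:55087883-55088182, - strand): ttccgGAAGGTTCTAGAAcggac
Dnajb6 (window chr5:29735648-29735947, + strand): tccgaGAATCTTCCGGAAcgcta
Hsph1 (window chr5:149636266-149636565, - strand): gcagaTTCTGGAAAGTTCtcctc
The Hspe1 and Hspd1 lines are the same element read on the 2 strands, and each window holds 1 further match that overlaps it. None of these 4 genes was called in any comparison, and of the 8 called members with a window 0 held this motif. A match is only a run of letters, and its absence says nothing of the factor.

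The HSP70, HSP90 and lectin chaperones of the ER gave no call. Of the 6 measured, 6 were tested and limma, edgeR and DESeq2 called 0 in all 3 comparisons, with 0 at an unadjusted p under 0.05. Over all genes tested limma called 5.61% to 6.42%, and 18.8% to 21.4% had an unadjusted p under 0.05. Hspa5, which encodes BiP, the HSP70 of the ER and the usual readout of the unfolded protein response, had 461, 580.0 and 474 in labelled double KO, 385, 504 and 524 in Sqstm1 KO, and 479, 528 and 577 in WT. Hsp90b1, which encodes GRP94, had 2865, 2038 and 2011 in labelled double KO, 1793, 1712 and 2870.0 in Sqstm1 KO, and 2318, 2369.9 and 2633 in WT. In both genes all 3 groups overlapped. The lectin chaperone calreticulin (Calr) ran from 485 to 803 in labelled double KO, 600.3 to 759 in Sqstm1 KO and 498 to 708 in WT. Calnexin (Canx) was the exception in order, with 414, 396 and 391 in labelled double KO, 504, 520.2 and 527 in Sqstm1 KO, and 473, 495 and 545 in WT. It lay wholly below both other groups in labelled double KO without a call. Hyou1, the exchange factor of BiP, ran from 63.7 to 93.6 in labelled double KO, 46.6 to 96.0 in Sqstm1 KO and 86.1 to 108 in WT. The J proteins of the ER gave 0 calls by limma or edgeR, among them Dnajc3, at 121, 100.5 and 75.1 in labelled double KO, 55.1, 87.7 and 93.3 in Sqstm1 KO, and 59.9, 99.4 and 92.8 in WT. DESeq2 called 1 of them, Sec63, in Sqstm1 KO against WT. Dnajb9, a target of the IRE1 branch of the unfolded protein response, did not pass the filter, with 4.78, 7.99 and 2.55 in labelled double KO, 6.13, 8.12 and 13.0 in Sqstm1 KO, and 5.45, 9.79 and 17.0 in WT.

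A promoter motif that the choice of members did not use was found in some of the ER genes. The ER stress response element, which ATF6 and NF-Y bind, was searched as CCAAT and CCACG with 9 bases of any kind between them, on both strands of the same windows. It was found in 6 of 83 members (7.23%), all of them ER chaperones, ER J proteins or disulfide isomerases, and in 0.137% of 27025 genes. The sites are printed because the 6 genes that hold them were not called, with the match in capitals and 5 flanking bases on each side.
Hspa5 (window chr2:34771840-34772139, + strand): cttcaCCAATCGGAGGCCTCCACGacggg
Hsp90b1 (window chr10:86705395-86705694, - strand): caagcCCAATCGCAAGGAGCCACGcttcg
Canx (window chr11:50325624-50325923, - strand): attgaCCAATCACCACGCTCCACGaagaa
Calr (window chr8:84846882-84847181, - strand): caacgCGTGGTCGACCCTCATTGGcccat
Pdia6 (window chr12:17266339-17266638, + strand): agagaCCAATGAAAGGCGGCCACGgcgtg
Dnajc3 (window chr14:118937682-118937981, + strand): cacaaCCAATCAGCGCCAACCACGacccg
The window of Hsp90b1 holds a further match, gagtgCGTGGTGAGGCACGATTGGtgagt. This match and that of Calr are on the other strand, so they read as the reverse complement. The related motif, ATTGG and CCACG with 1 base of any kind between them, was found in 1 member, Dnajb11, and in 0.0444% of 27025 genes. Dnajb11, a J protein of BiP, had 57.4, 74.2 and 71.3 in labelled double KO, 74.5, 97.4 and 94.4 in Sqstm1 KO, and 80.3, 108 and 114 in WT, with labelled double KO wholly below both other groups and no call.

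Pdia4 was the one disulfide isomerase called, and it was higher in labelled double KO than in WT. It encodes ERp72, a disulfide isomerase. It had 229, 158 and 125 in labelled double KO, 133, 148 and 94.4 in Sqstm1 KO, and 77.6, 81.4 and 72.8 in WT. Both mutant groups lay wholly above WT and overlapped each other. It rose to 170.3 ± 53.0 in labelled double KO, against 77.3 ± 4.31 in WT (SD, n = 3 each), a log2 fold change of 1.09 (SE 0.28; limma adjusted p = 0.0305). In Sqstm1 KO the log2 fold change was 0.66 (SE 0.28; limma adjusted p = 0.203). The call was lost with scaling by total reads (limma adjusted p = 0.126) and without any WT library or double KO replicate 1 or 2 (0.0567 to 0.128).

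The promoter of Pdia4 is shown beside that of Hspa5, since a called and an uncalled ER gene can then be compared. Each line is the 250 bases before the RefSeq start, in the direction of the gene, with capitals at CCAAT on either strand and at the full ER stress element.
Pdia4 (chr6:47813513-47813762, - strand): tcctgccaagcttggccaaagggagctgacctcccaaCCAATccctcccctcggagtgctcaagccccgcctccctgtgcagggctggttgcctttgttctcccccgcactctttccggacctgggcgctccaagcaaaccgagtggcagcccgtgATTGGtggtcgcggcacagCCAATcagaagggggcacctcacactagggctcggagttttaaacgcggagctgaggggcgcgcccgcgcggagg
Hspa5 (chr2:34771840-34772089, + strand): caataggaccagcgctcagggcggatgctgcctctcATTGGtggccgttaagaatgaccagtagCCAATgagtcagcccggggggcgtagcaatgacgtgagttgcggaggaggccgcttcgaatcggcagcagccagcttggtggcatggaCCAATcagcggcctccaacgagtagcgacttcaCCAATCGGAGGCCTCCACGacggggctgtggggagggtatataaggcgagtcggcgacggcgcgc
The Pdia4 window held CCAAT at 3 places and 0 full elements, and the Hspa5 window held it at 4 places, 1 of them within the full element. CCAAT alone is common: it was present in 39 of 83 members (47.0%) and in 41.1% of 27025 genes.

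The other disulfide isomerases were not called. Pdia5 had 9.56, 7.99 and 10.2 in labelled double KO, 15.3, 21.1 and 16.3 in Sqstm1 KO, and 1.36, 8.29 and 7.28 in WT. Sqstm1 KO lay wholly above both other groups, with a log2 fold change against WT of 1.70 (SE 0.53; limma adjusted p = 0.0789). P4hb, the founding isomerase and a subunit of collagen prolyl hydroxylase, had 399, 328 and 321 in labelled double KO, 322, 364 and 397 in Sqstm1 KO, and 233, 271 and 339 in WT, with overlap. Pdia3, the partner of the lectin chaperones, had 819, 813 and 714 in labelled double KO, 629.9, 618 and 886 in Sqstm1 KO, and 582, 663 and 626 in WT. Labelled double KO lay wholly above WT. Pdia3 shares 18 exon bases with Catsper2 on the opposite strand, which averaged 417. Pdia6 had 172, 186 and 231 in labelled double KO, 229, 226 and 207 in Sqstm1 KO, and 238, 248 and 266 in WT, with both mutant groups wholly below WT. Pdia2 did not pass the filter.

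FKBP prolyl isomerases had mostly positive log2 fold changes in both mutant groups against WT. Of 10 tested, 8 had a positive log2 fold change in Sqstm1 KO, with a median of 0.57, and 7 in labelled double KO, with a median of 0.48, and both medians stayed above 0 under every scaling. These comparisons share the WT libraries. In Sqstm1 KO 2 were called (5.61% of all genes tested), and 4 had an unadjusted p under 0.05 (19.4% of all genes). For labelled double KO limma, edgeR and DESeq2 called 0, beside 6.42% of all genes by limma. There 5 had an unadjusted p under 0.05 (21.4% of all genes). Fkbp9, an isomerase of the ER lumen, had 281, 223 and 208 in labelled double KO, 293, 351 and 247 in Sqstm1 KO, and 151, 131 and 149.8 in WT. Both mutant groups lay wholly above WT. It rose to 297 ± 51.8 in Sqstm1 KO, against 144 ± 11.2 in WT (SD, n = 3 each), a log2 fold change of 1.03 (SE 0.24; limma adjusted p = 0.0223), and the log2 fold change in labelled double KO was 0.71 (SE 0.24; limma adjusted p = 0.104). The call was lost with scaling by total reads (limma adjusted p = 0.132) and without any WT library or Sqstm1 KO replicate 1 or 2 (0.0627 to 0.137).

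Fkbp4 encodes FKBP52, which joins HSP90 in steroid receptor complexes. It had 89.9, 62.8 and 73.9 in labelled double KO, 107, 64.1 and 98.7 in Sqstm1 KO, and 43.6, 46.0 and 34.6 in WT. Both mutant groups were wholly above WT and overlapped each other. It rose to 90.0 ± 22.8 in Sqstm1 KO, against 41.4 ± 6.01 in WT (SD, n = 3 each), a log2 fold change of 1.08 (SE 0.28; limma adjusted p = 0.0383). The log2 fold change in labelled double KO was 0.85 (SE 0.28; limma adjusted p = 0.0936). The call was lost with scaling by total reads (limma adjusted p = 0.101), with only the 2 groups compared (0.0659), and without any WT library, Sqstm1 KO replicate 1 or double KO replicate 3 (0.0640 to 0.156). Fkbp5 encodes FKBP51, its counterpart on HSP90. It had 66.0, 33.1 and 34.4 in labelled double KO, 52.1, 51.1 and 24.9 in Sqstm1 KO, and 25.9, 16.6 and 22.4 in WT, with log2 fold changes against WT of 0.96 in labelled double KO (SE 0.37; limma adjusted p = 0.153) and 0.90 in Sqstm1 KO (SE 0.37; limma adjusted p = 0.200).

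The other FKBPs of the ER were not called. Fkbp7 had 25.8, 44.5 and 44.6 in labelled double KO, 23.5, 29.2 and 43.4 in Sqstm1 KO, and 15.0, 22.6 and 12.7 in WT. Both mutant groups were wholly above WT, with a log2 fold change in labelled double KO of 1.14 (SE 0.36; limma adjusted p = 0.0781) and in Sqstm1 KO of 0.89 (SE 0.36; limma adjusted p = 0.189). Fkbp14 ran from 20.1 to 58.2 in labelled double KO, 13.0 to 26.0 in Sqstm1 KO and 7.53 to 17.0 in WT. Fkbp10, which encodes FKBP65, a chaperone of procollagen, had 48.8, 50.2 and 58.6 in labelled double KO, 55.1, 56.0 and 75.9 in Sqstm1 KO, and 35.4, 41.4 and 57.6 in WT, with all groups overlapping. It shares 193 exon bases on the opposite strand with Nt5c3b, which averaged 736. Fkbp11 did not pass the filter, with 3.82, 2.28 and 3.82 in labelled double KO, 4.08, 5.68 and 7.59 in Sqstm1 KO, and 2.72, 3.01 and 5.46 in WT. Fkbp3, the FKBP with the highest counts, is nuclear. It had 218, 235 and 255 in labelled double KO, 242, 189.9 and 317 in Sqstm1 KO, and 327, 266 and 247 in WT, with overlap, and shares 599 exon bases with Prpf39 on the opposite strand. The sum of stellate and myofibroblast markers was also higher in both mutant groups than in WT, and its part in the FKBP values was not tested. The marker Acta2 had 266, 545 and 335 in labelled double KO, 632, 908 and 918 in Sqstm1 KO, and 77.6, 81.4 and 94.6 in WT. The markers did not all rise. Against WT, 6 of 8 had a positive log2 fold change in Sqstm1 KO and 2 a negative one, and 8 were positive in labelled double KO. The 2 were Pdgfra, with 56.1, 99.0 and 67.2 in Sqstm1 KO and 120, 80.6 and 95.2 in WT, and Pdgfrb, where these groups overlapped.

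**Figure D5:**
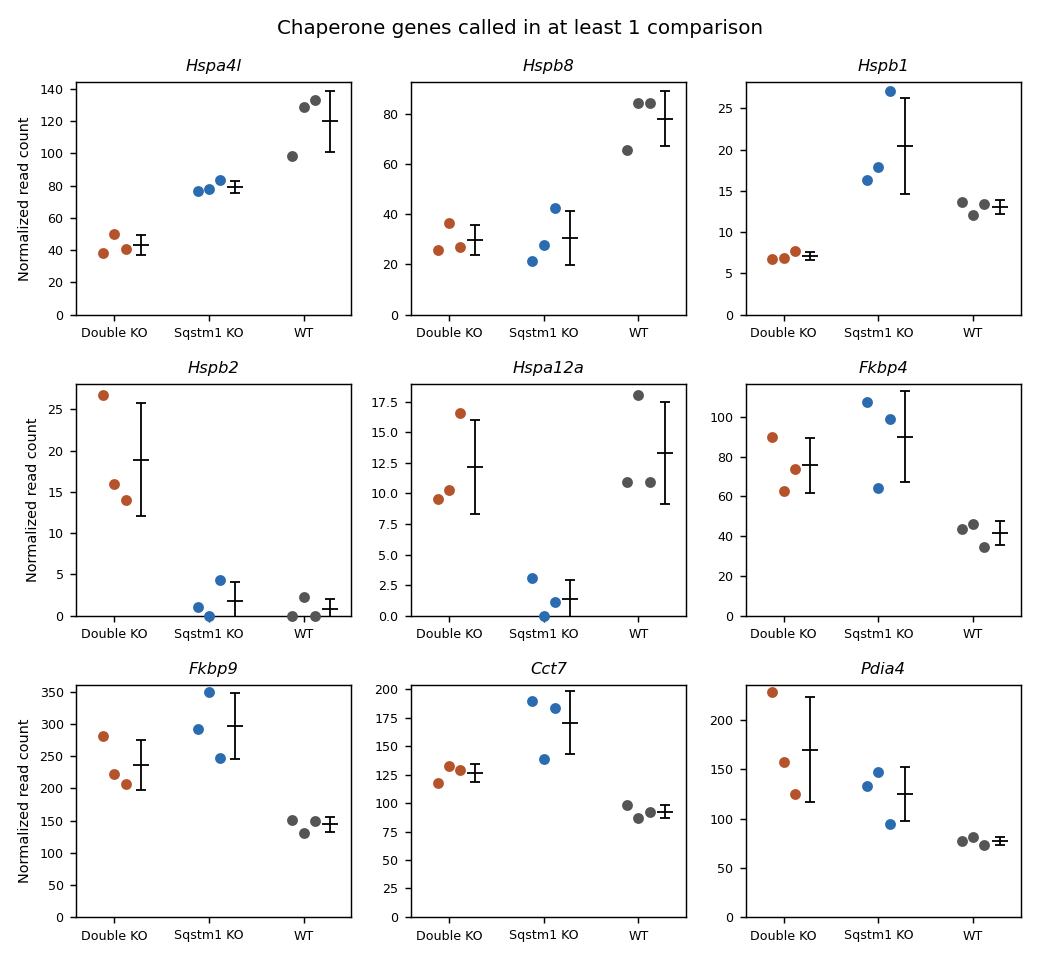
Normalized counts (y axis) of the 9 chaperone genes called in at least 1 comparison, in labelled double KO, Sqstm1 KO and WT libraries (points; bars are mean ± SD, n = 3, cut at 0). Hspa4l and Hspb8 are highest in WT, Fkbp4, Fkbp9, Cct7 and Pdia4 are lowest in WT, and Hspb2 is above 10 in labelled double KO alone. Hspb2 passed the filter only through that group, so its calls are a description.

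One matched symbol, Hspg2, encodes perlecan, a matrix proteoglycan that is no chaperone, and Hspbap1 is no folding gene either. Hspg2 ran from 104 to 249 in labelled double KO, 93.3 to 269 in Sqstm1 KO and 142 to 161 in WT, and was not called. Hspbap1 did not pass the filter.

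Genes that act with the members were described from 4 further lists. Of all genes tested, limma called 5.61% in Sqstm1 KO against WT and 5.93% in labelled double KO against Sqstm1 KO. In labelled double KO against WT it called 6.42%. The shares of all genes at an unadjusted p under 0.05 were 19.4%, 18.8% and 21.4% in that order. Of 21 HSF1 and cochaperone genes, limma called 0 in Sqstm1 KO against WT and in labelled double KO against Sqstm1 KO, with 2 at an unadjusted p under 0.05 in each, and 1, Cryab, in labelled double KO against WT. In Sqstm1 KO against WT, edgeR and DESeq2 called 1 each, which for DESeq2 was Cryab. Of 22 unfolded protein response genes, limma, edgeR and DESeq2 called 0 in each comparison, with 1, 2 and 1 at an unadjusted p under 0.05. Of 9 mitochondrial folding genes limma and edgeR called 0 in each, with 2, 1 and 0 at an unadjusted p under 0.05, and DESeq2 called 1, Trap1, in Sqstm1 KO against WT. Of 25 ER and collagen folding enzymes, limma called 2 in Sqstm1 KO against WT and 0 in the other 2 comparisons, where 3 in each had an unadjusted p under 0.05, edgeR called 0 and DESeq2 called 1 each, Serpinh1 and Plod2.

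The collagen folding genes called in Sqstm1 KO moved in opposite directions. Serpinh1, which encodes the collagen chaperone HSP47, had 248, 394 and 350.2 in labelled double KO, 646, 614 and 572 in Sqstm1 KO, and 227, 264 and 373 in WT. Sqstm1 KO lay wholly above both other groups, with a rise against WT of 1.11 on the log2 scale (SE 0.27; limma adjusted p = 0.0272). P4ha1, the catalytic subunit that pairs with P4hb in collagen prolyl hydroxylase, had 257, 253 and 233 in labelled double KO, 176, 202 and 133 in Sqstm1 KO, and 306, 348 and 365 in WT. The 3 groups did not overlap, with Sqstm1 KO lowest, and its log2 fold change in Sqstm1 KO against WT was -1.01 (SE 0.24; limma adjusted p = 0.0234). The Serpinh1 call was lost under 8 of 19 alternatives, among them without WT replicate 1 or 2, Sqstm1 KO replicate 1 or 2 or double KO replicate 3 (limma adjusted p 0.0503 to 0.142), and the P4ha1 call was lost under 5, among them without any WT library or Sqstm1 KO replicate 1 (0.0548 to 0.125).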

How the data were processed

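RNA-seq of 9 bulk libraries was analysed. The deposited values are normalized read counts: the submitters' processing notes name STAR, DESeq2 and the build GRCm39, without versions or roles. Neither kit, strand setting nor read counter is stated. From the deposited signal values, whole reads were recovered for 100% of 121126 values above 0 (tolerance 0.01 reads), and 0 columns were unused.

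The main test was limma's linear model with a mean-variance trend (limma 3.58.1, R 4.3.3) on log2(value + 1), two-sided, over all 9 libraries in 3 groups, for 10118 genes with at least 10 in at least 3 libraries. Fold changes on this scale understate low genes. An exact permutation test of 3 against 3 cannot go below p = 0.1. Over all genes limma called 568 in Sqstm1 KO against WT, 600 in labelled double KO against Sqstm1 KO and 650 in labelled double KO against WT. On the recovered reads edgeR 4.0.16 called 642, 614 and 735, and DESeq2 1.42.0 called 802, 716 and 880. Alternatives were another pseudocount, filter, scaling, fit or tool, and leaving out each library. Scaling by total reads was added after seeing the data. The model was tested on simulated counts.

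Exon overlaps and lengths came from GENCODE annotation of GRCm38, from which no coordinates are given, and promoter windows from RefSeq (GRCm38.p6, 83 of 99 members matched). Named were all called members, the highest of each class and a fixed list of well-known chaperones. Others were added after their values were seen. Members and lists were chosen with earlier results of these data known.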

Additional observations from a re-analysis of the deposited data

How the results depend on the processing

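Under the alternatives run, the log2 fold change changed sign in 0 of the 12 called and 19 uncalled gene results followed. Medians were not all as steady. The member median in Sqstm1 KO against WT went from 0.11 to -0.01 with quantile normalization and -0.09 with scaling by total reads. Of 223 alternatives to the 12 called results, 162 kept the call and 61 lost it, and 11 of the 12 results were lost without some single library. The 12 include the calls of Hspb2, which are a description because it passed the filter only through the labelled double KO group. Among 354 alternatives to 19 uncalled results, 20 gave a call. In Sqstm1 KO against WT the 5 called members became 3 with scaling by total reads, 3 with only the 2 groups compared and 3 when only members without an opposite-strand exon overlap were counted, and 0 to 7 when a library was left out. The 0, without WT replicate 2, is limma's, with 8 members at an unadjusted p under 0.05. In labelled double KO against Sqstm1 KO the 3 became 1 with a filter of at least 50, 1 with only the 2 groups compared and 1 without overlapping members, and 0 to 2 with a library left out. The 0, without double KO replicate 3, is limma's, with 8 at an unadjusted p under 0.05. In labelled double KO against WT the 4 became 9 with only the 2 groups compared, and 1 to 13 with a library left out. Calls over all genes tested moved too. With only the 2 groups compared they were 421, 352 and 1229 in the 3 comparisons, in the order above. With a library left out they ran from 264 to 659, 333 to 777 and 294 to 1409. Member counts for labelled double KO include Hspb2 wherever it was called, although it passed the filter only through that group. edgeR called 5, 3 and 4, and DESeq2 5, 4 and 4. With the replicate block the counts were 5, 2 and 4, Hspb1 being lost (limma adjusted p = 0.0567). The labels do not say whether the replicate numbers pair the libraries. Of 9 same-numbered pairs, 5 deviated together with a correlation above 0.1. The same-numbered pairs ran from -0.12 to 0.18, and a pair of unlike numbers, WT replicate 3 and double KO replicate 2, reached 0.26. Of the 9 libraries, 6 correlated best with their own number, a hint from the data and not the design. The cause of these changes was not tested. Scaling by total reads moved the median of all genes to -0.21 in Sqstm1 KO against WT and -0.14 in labelled double KO against WT. At 819677 to 1467793 reads a library, genes such as Hspb2, Hspa12a and Hspa1b rest on few reads.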
